A study of Homo sapiens with 6 samples.

Results

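The transcripts described here come from 49 genes of DNA replication, of 62016 genes listed in each of 3 tables of RNA sequencing. The 49 are a list of symbols, drawn up for what the products do at origins and forks. All 49 were found in each table. RFC2 also had an entry on a patch sequence of the assembly, which was listed at 0 in every group of the JMJD1C tables and was left out. Levels are the authors' group FPKM, a fragment count divided by transcript length and library size. A gene counted as measured where the authors tested it and the higher of its 2 group values reached 1 FPKM. All 49 genes were measured in both JMJD1C tables, and none lay near that limit, since the lowest member, E2F2, had 9.41 FPKM with shRNA63 against 11.5 FPKM in control.

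Kasumi-1 is a myeloblast line from a patient with acute myeloid leukemia and carries the fusion protein AML1-ETO, in which RUNX1 is joined to RUNX1T1. Its cells carried JMJD1C shRNA63, JMJD1C shRNA95 or a control shRNA, each delivered by a pLKO virus made in 293T cells, and were collected after 4 days of infection. Each of these 3 groups had 2 libraries, which the authors combined into 1 value, so no value per library is given below. Whether the 2 libraries were grown as separate cultures is not in the labels. The p-values therefore rest on libraries whose spread may be technical, and may not cover the spread between cultures. JMJD1C encodes a JmjC-domain protein related to the histone H3 lysine 9 demethylases, and each comparison asked what its depletion did to transcript levels. The remaining table sets cells with an AML1-ETO shRNA against cells with a control shRNA, with 1 library each from a series published earlier, and only its comparison columns were used. There, 47 of the 49 genes had a value, because the authors' test failed for RFC4 and POLE.

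Replication is prepared in G1, when the origin recognition complex, CDC6 and CDT1 load the MCM2 to MCM7 ring onto DNA. At the start of S phase CDC45 and the GINS complex join the ring to form the active helicase, polymerase alpha with primase lays down primers, and polymerases epsilon and delta extend them on the sliding clamp PCNA, which the RFC complex loads. Many of these genes are transcribed at the G1/S border under E2F factors, so their summed RNA in a population depends on how many cells are cycling as well as on RNA per cell. In these bulk samples fewer cells in S phase and less RNA per cell cannot be told apart.

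JMJD1C itself stood at 13.7 FPKM with shRNA63 against 30.4 FPKM in control, or 45.1% of control (q = 0.00214 in the authors' deposited table). JMJD1C had 25.1 FPKM in the libraries labelled shRNA95 against 29.4 FPKM in control, or 85.3% of control (q = 0.938 in the authors' deposited table), so the loss of the target was not detectable there and directions given for those libraries rest on their label. Of 10 myeloblast markers 9 reached 1 FPKM in every group. The exception, MPO, was listed at 0 in every group, as was the housekeeping gene EEF1A1, both with the authors' status for too many reads. The summed level of the 10 markers was 7158 FPKM with shRNA63 against 3050 FPKM in control, and 3686 FPKM in the libraries labelled shRNA95 against 2958 FPKM in control. Most of the shRNA63 sum came from the granule protease genes ELANE and AZU1, at 3744 and 2592 FPKM against 1143 and 1040.0 FPKM in control. Both were called there (q = 0.00214 for each in the authors' deposited table), and the part of this rise in the values below was not tested. Of the other markers, KIT was lower with both hairpins, and PTPRC and CD33 were higher with both. CD34, MYB, RUNX1 and RUNX1T1 differed in direction between the hairpins. KIT, a receptor of progenitors, had 134 FPKM with shRNA63 against 245 FPKM in control (q = 0.00214 in the authors' deposited table), and 166 FPKM with the shRNA95 label against 238 FPKM. CD34, a progenitor surface protein, had 103 FPKM with shRNA63 against 151 FPKM, and 249 FPKM with the shRNA95 label against 146 FPKM (q = 0.00216 in the authors' deposited table). PTPRC, the leukocyte phosphatase CD45, had 23.0 FPKM with shRNA63 against 7.50 FPKM, and 44.7 FPKM with the shRNA95 label against 7.26 FPKM. It was called in both (q = 0.00214 and 0.00216 in the authors' deposited tables). CD33 had 35.4 FPKM with shRNA63 against 19.8 FPKM (q = 0.0135 in the authors' deposited table), and 22.5 FPKM with the shRNA95 label against 19.2 FPKM. The erythroid markers HBB, HBA1, HBA2 and ALAS2 stayed under 0.1 FPKM in every group, with HBB and HBA2 at 0 throughout. The 5 T cell markers summed to 3.51 FPKM with shRNA63 against 9.90 FPKM in control, and to 2.58 FPKM in the libraries labelled shRNA95 against 9.59 FPKM in control, most of it CD3D. The 6 markers of 293T cells summed to between 23.7 and 24.5 FPKM in every group, with PAX2 at 0, and the 3 B cell markers to between 1.39 and 2.91 FPKM, with MS4A1 at 0. Of the 293T markers 3, EPCAM, SIX2 and CDH2, reached 1 FPKM in every group, and EPCAM was the highest. The steady sum hides opposite moves with shRNA63. CDH2 had 2.11 FPKM there against 4.20 FPKM in control (q = 0.00214 in the authors' deposited table), and SIX2 had 7.38 against 5.35 FPKM, without a call. Depth per library is unknown, and the commonest log2 fold change of genes too low to be tested put the depth at 0.788 times that of control for shRNA63 and 0.708 times for shRNA95, if those genes had equal reads in both groups.

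E2F factors bind the letters TTTGGCGC, TTTGCCGC, TTTCGCGC and TTTCCCGC, and these were searched on both strands of RefSeq promoter windows of 300 bases (GRCh38.p14, 250 before to 50 after each transcript start). Windows were matched for 41 of the 49 genes, 53 windows in all. At least 1 of the 4 motifs was present for 21 of the 41 genes (51.2%), against 855 of 15843 protein-coding genes with a window (5.40%), and in 22 of the 53 windows (41.5%), against 4.10% of 22199 windows of protein-coding genes and 3.31% of all 35116 windows. CCAAT, the letters of another common promoter element, was present for 25 of the 41 genes (61.0%), against 42.1% of protein-coding genes. Matches on opposite strands can overlap, and 23 of the 30 matches began within 100 bases of the transcript start. A match is a run of letters and not a measured binding site. The stretches below come from some of the 21 genes with a match, picked after their values were known. They include genes that were not called, such as PCNA and E2F2. DSCC1, called with the shRNA95 label, had no window, and CDC45 and RRM1 had a window without a match. Capitals mark the E2F motif, and each stretch is written 5′ to 3′ on the strand of the gene. MCM6, UHRF1, MCM3, PCNA, E2F1 and E2F2 are shown over 100 bases that lie outside annotated exons (GENCODE 29), the others over the 28 bases around the match.
MCM6, chr2:135876502-135876601 (- strand): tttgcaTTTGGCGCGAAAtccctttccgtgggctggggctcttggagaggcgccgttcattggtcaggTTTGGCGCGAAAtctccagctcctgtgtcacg
UHRF1, chr19:4909912-4910011 (+ strand): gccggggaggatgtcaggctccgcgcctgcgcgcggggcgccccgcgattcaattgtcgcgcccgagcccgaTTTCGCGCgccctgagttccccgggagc
MCM3, chr6:52284889-52284988 (- strand): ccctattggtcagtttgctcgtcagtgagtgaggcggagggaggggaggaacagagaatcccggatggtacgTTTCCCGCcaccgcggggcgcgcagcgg
PCNA, chr20:5126654-5126753 (- strand): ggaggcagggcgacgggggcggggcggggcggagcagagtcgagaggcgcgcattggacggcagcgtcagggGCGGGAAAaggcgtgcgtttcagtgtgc
E2F1, chr20:33686405-33686504 (- strand): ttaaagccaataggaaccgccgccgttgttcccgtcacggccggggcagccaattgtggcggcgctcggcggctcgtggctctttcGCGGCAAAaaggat
E2F2, chr1:23531248-23531347 (- strand): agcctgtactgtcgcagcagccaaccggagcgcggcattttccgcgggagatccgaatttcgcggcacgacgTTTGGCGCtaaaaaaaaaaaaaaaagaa
RFC3, chr13:33818084-33818111 (+ strand): tttggagctcGCGGGAAAacttgtctct
CDT1, chr16:88803744-88803771 (+ strand): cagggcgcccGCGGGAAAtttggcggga
MCM2, chr3:127598407-127598434 (+ strand): accactTTTCGCGCGAAAcctggttgtt
MCM7, chr7:100101389-100101416 (- strand): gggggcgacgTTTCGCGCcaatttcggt
The MCM6 stretch holds its motif in 2 separate places, and in each place a match on the gene's strand overlaps one on the opposite strand. MCM2 also has such an overlapping pair, next to its transcript start.

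**Figure D1:**
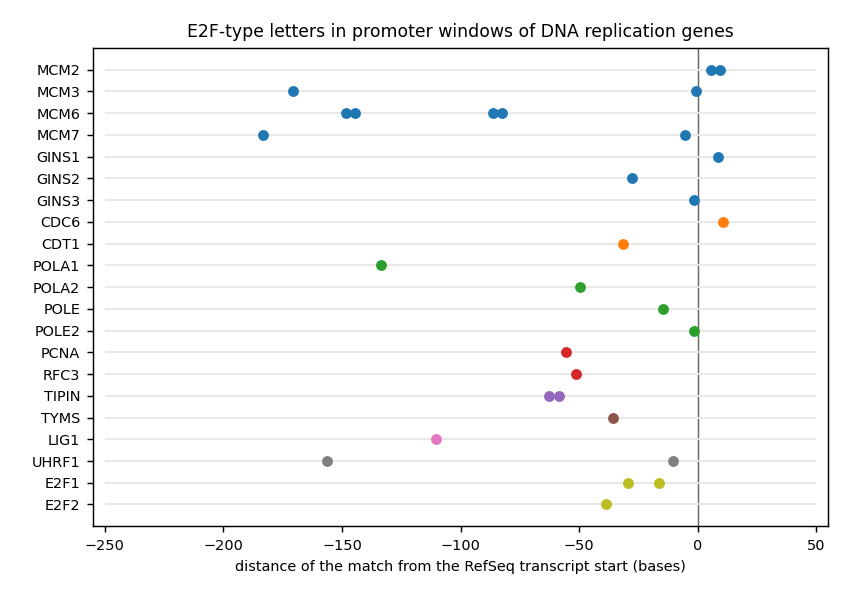
Position of each match to the 4 E2F-type motifs in the promoter windows of the 21 members that have one, in bases from the RefSeq transcript start (vertical line). Colours stand for the roles of the genes, grey lines for the window, and most of the 30 matches lie within 100 bases of the start.

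In the control group of the shRNA63 table the 49 genes spanned 11.5 FPKM for E2F2 to 485 FPKM for MCM4, with a median of 64.9 FPKM. MCM7, POLD2, TYMS and PCNA followed MCM4, between 279 and 357 FPKM, and the lowest after E2F2 were GINS3 and POLA1 at 14.6 and 16.2 FPKM. The control libraries are the same in both JMJD1C tables, and the members' control values differed between the tables only by the scaling, 1.03 times for every member. All 49 genes kept at least 55.7% of their control level with shRNA63 and at least 61.4% in the libraries labelled shRNA95.

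**Figure D2:**
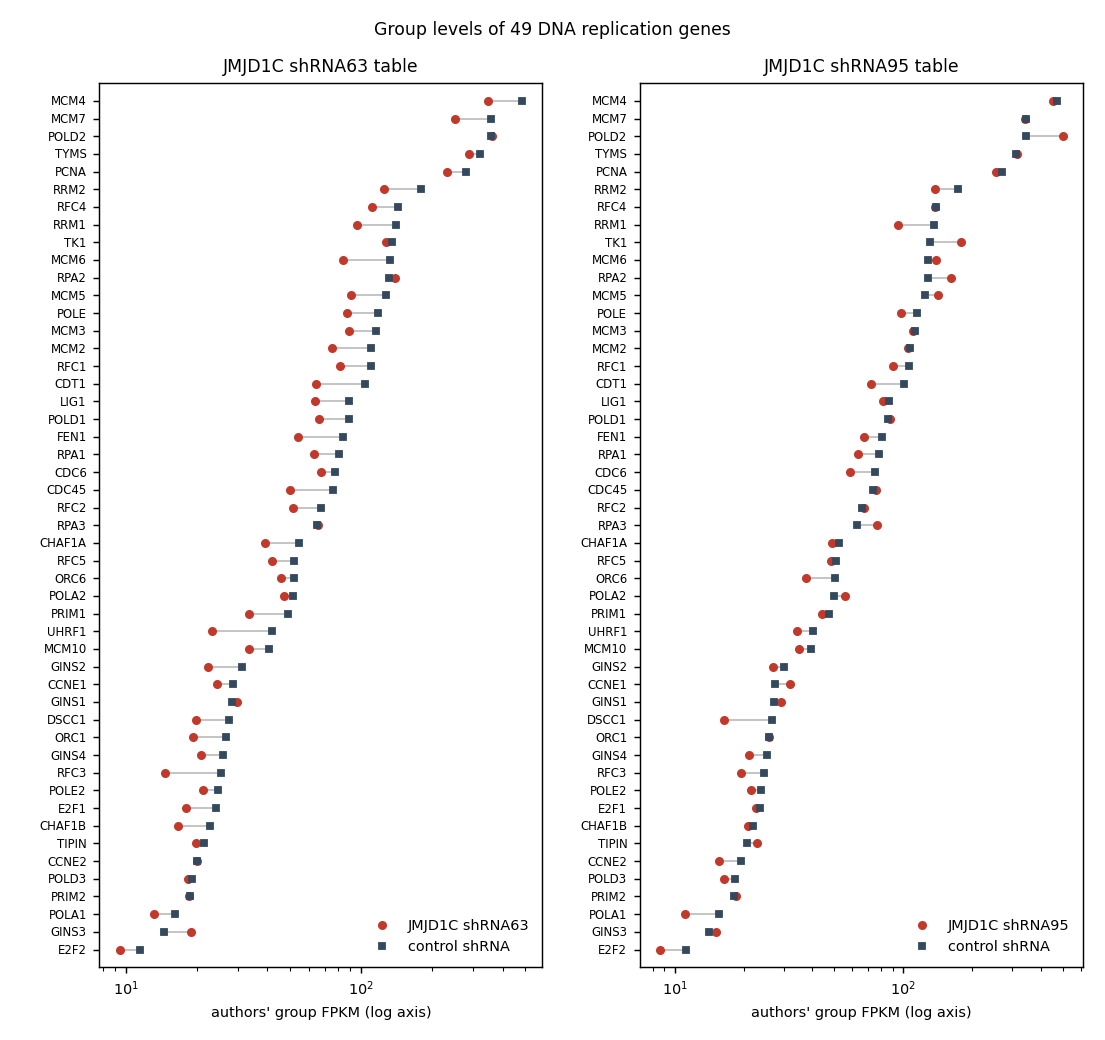
Authors' group FPKM of the 49 genes on a log axis, with the hairpin group as red circles and the control group as dark squares, ordered by control level in each table. With shRNA63 most circles lie left of their square, up to UHRF1 at 23.2 against 41.7 FPKM, while in the libraries labelled shRNA95 they lie on both sides, with POLD2 at 499.8 against 346 FPKM.

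With shRNA63, 43 of the 49 genes were below control and 6 above, where 48.9% of all 14475 measured genes were below and 51.1% above. The median log2 fold change was -0.39, against 0.01 for all measured genes with a finite value, so the typical member stood at 76.3% of control. UHRF1 and RFC3 passed the authors' test lower (q under 0.05 in the authors' deposited table) and no member passed higher, while 3.25% of all measured genes passed lower and 2.49% higher. The share of members called, 2 of 49 or 4.08%, was thus near that of all genes. At a q under 0.1, 6 members were lower and none higher, against 4.15% and 3.27% of all measured genes. At an unadjusted p under 0.05 in the authors' deposited table, 14 of the 49 genes were lower and none higher, against 7.39% and 6.99% of all measured genes. These are shares of genes that may move together, and not of independent observations. The median error (the log2 fold change over the authors' test statistic) was 0.32 for the members against 0.38 for all measured genes. The members and all genes are thus not alike in precision.

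In the libraries labelled shRNA95, 33 of the 49 genes were below control and 16 above, where 46% of all 14391 measured genes were below and 54% above. The median log2 fold change was -0.07, against 0.04 for all measured genes with a finite value. As a log2 ratio with a pseudocount of 1 FPKM, the members' median was -0.07. Relative to 14 reference genes, whose own median was 0.14 on that ratio, it was -0.21. Relative to all measured genes, with a median of 0.03, it was -0.10. DSCC1 alone passed the authors' test, lower, and none passed higher, while 1.98% of all measured genes passed lower and 3.06% higher. ORC6, POLA1, RRM1 and DSCC1 were lower and POLD2 and TK1 higher at an unadjusted p under 0.05 in the authors' deposited table, 4 and 2 of the 49 genes, against 5.29% and 7.98% of all measured genes. At a q under 0.1 DSCC1 was still the only one, against 2.44% of all measured genes lower and 4.04% higher. Here too the median error was smaller for the members, 0.33 against 0.38 for all measured genes. The comparisons share their control libraries, so noise in those libraries enters both alike.

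**Figure D3:**
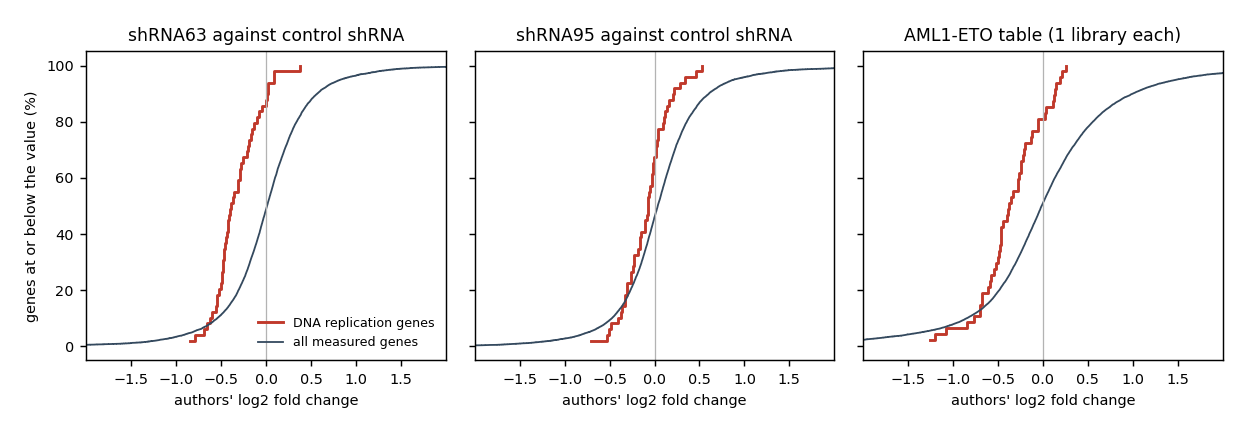
Cumulative share of genes (vertical axis, %) by the authors' log2 fold change (horizontal axis, shown from -2 to 2), for the members (red) and all measured genes (dark) in each table. The red curve lies left of the dark one over most of its length in each panel, with medians of -0.39 against 0.01 for shRNA63, -0.07 against 0.04 for the shRNA95 label and -0.37 against -0.01 in the AML1-ETO table.

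The replicative helicase had a median log2 fold change of -0.48 with shRNA63 and -0.02 with the shRNA95 label over 12 genes, none of them called. MCM2, a subunit of the ring, had 75.5 FPKM with shRNA63 against 111 FPKM in control, and 105 FPKM in the libraries labelled shRNA95 against 107 FPKM in control. MCM6 had 83.9 FPKM with shRNA63 against 133 FPKM in control, and 139 FPKM with the shRNA95 label against 128 FPKM. MCM4, the most abundant member, had 348 FPKM with shRNA63 against 485 FPKM in control, and 454 FPKM with the shRNA95 label against 470.2 FPKM. All 6 ring subunits, MCM2 to MCM7, stood below control with shRNA63, between 63.3% of control for MCM6 and 76.3% for MCM3, while with the shRNA95 label they stood between 96.6% for MCM4 and 115% for MCM5. The log2 fold changes with shRNA63 were -0.55 for MCM2 (error 0.30), -0.49 for MCM5 (error 0.33), -0.66 for MCM6 (error 0.34) and -0.50 for MCM7 (error 0.36) in the authors' deposited table. None of the 6 passed, and the smallest q were 0.0876 for MCM2 and 0.0907 for MCM6. All but MCM4, 5 of the 6, had an unadjusted p under 0.05 in the authors' deposited table. Of all measured genes 7.39% were lower at that p.

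CDC45, which completes the active helicase together with GINS, had 50.01 FPKM with shRNA63 against 76.2 FPKM in control, a log2 fold change of -0.61 in the authors' deposited table (error 0.28, q = 0.0846). In the libraries labelled shRNA95 it had 75.7 FPKM against 73.8 FPKM in control. Of the 4 GINS genes 2 stood below control with shRNA63 and 2 above. GINS2 stood at 22.3 FPKM with shRNA63 against 31.1 FPKM in control, whereas GINS1 stood at 29.8 against 28.2 FPKM. GINS3 had the highest log2 fold change of all members with shRNA63, 0.38 in the authors' deposited table (error 0.25, q = 0.558), with 19.0 FPKM against 14.6 FPKM in control, and it was not called. GINS4 had an error of 0.69 on the log2 scale and lies on a locus with 5 listed genes. MCM10, which helps activate the helicase, had 33.5 FPKM with shRNA63 against 40.7 FPKM in control, and 34.9 against 39.5 FPKM with the shRNA95 label.

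Of the licensing genes, all 4 stood below control in both JMJD1C tables, and none was called. CDT1, the loader of the MCM ring, had 64.3 FPKM with shRNA63 against 104 FPKM in control, and 72.3 FPKM in the libraries labelled shRNA95 against 101 FPKM. Its log2 fold changes were -0.69 (error 0.36, q = 0.0882) and -0.48 (error 0.36, q = 0.434) in the authors' deposited tables. ORC1, the largest origin recognition subunit, had 19.4 FPKM with shRNA63 against 26.8 FPKM in control, while with the shRNA95 label its 25.9 FPKM lay beside 26.0 FPKM in control. ORC6 had 45.9 against 51.7 FPKM for shRNA63 and 37.7 against 50.1 FPKM for the shRNA95 label (unadjusted p = 0.0430 in the authors' deposited table). CDC6, an ATPase of the same step, stood at 87.5% of control with shRNA63 and 78.0% with the shRNA95 label.

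The polymerase and primase genes had a median log2 fold change of -0.21 with shRNA63 over 9 genes, with no call and no unadjusted p under 0.05. POLA1, the catalytic subunit of polymerase alpha, had 13.2 FPKM with shRNA63 against 16.2 FPKM in control, and 11.1 FPKM in the libraries labelled shRNA95 against 15.7 FPKM. With the shRNA95 label the authors' deposited table gives POLA1 a log2 fold change of -0.50 (error 0.27, q = 0.150). POLD2, a regulatory subunit of polymerase delta, had 362 FPKM with shRNA63 against 357 FPKM in control, but 499.8 FPKM with the shRNA95 label against 346 FPKM. On the log2 scale that change was 0.53 in the authors' deposited table (error 0.18), the highest of any member there, and it was not called (q = 0.189). For POLD2 the p in the authors' deposited table, 0.0149, is larger than this error gives, so the error is the narrower reading. POLD1 and POLE, the catalytic subunits of polymerases delta and epsilon, stood at 75.2% and 74.0% of control with shRNA63 and at 101% and 85.2% with the shRNA95 label. For POLE the error was 1.23 on the log2 scale, and for the primase gene PRIM1 it was 1.62, so a change of the size called for RFC3 was not detectable for either.

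Precision differed with the locus. The tables place 29 of the 49 genes on a locus that holds further listed genes, and 20 stand alone. The median error of the log2 fold change with shRNA63 was 0.33 for genes on shared loci and 0.29 for those alone, but the highest was 1.62 against 0.47. PRIM1, POLE, FEN1, RFC4, CCNE2 and GINS4 had the 6 largest errors with shRNA63, and all 6 lie on shared loci, POLE with 17 listed genes. Reads of overlapping genes can be assigned to either, and the sources used here do not say whether strand was kept.

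The clamp and its loaders held 2 of the 3 calls, RFC3 with shRNA63 and DSCC1 with the shRNA95 label. That is 1 of 7 genes in each table, where 3.25% and 1.98% of all measured genes passed lower. RFC3, a small subunit of the clamp loader, had 14.6 FPKM with shRNA63 against 25.4 FPKM in control, and fell by 0.79 on the log2 scale in the authors' deposited table (error 0.26, q = 0.00214). In the libraries labelled shRNA95 RFC3 had 19.5 FPKM against 24.6 FPKM in control and was not called (q = 0.488 in the authors' deposited table). RFC3 lies at chr13:34392186-34540695 in hg19, on a locus with 3 listed genes. DSCC1, a subunit of the alternative clamp loader that acts in cohesion, had 16.4 FPKM with the shRNA95 label against 26.6 FPKM in control, a log2 fold change of -0.70 in the authors' deposited table (error 0.26, q = 0.00216). With shRNA63 DSCC1 had 19.98 FPKM against 27.5 FPKM in control and was not called (q = 0.141 in the authors' deposited table). It stands alone on its locus. All 7 genes of this role were below control with shRNA63, and 6 of the 7 with the shRNA95 label, where RFC2 was at 103%. PCNA, the clamp, had 232 FPKM with shRNA63 against 279 FPKM in control, and 256 against 270.0 FPKM with the shRNA95 label.

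The RPA complex, which coats unwound DNA, and TIPIN had a median log2 fold change of -0.04 with shRNA63 and 0.21 with the shRNA95 label over 4 genes. RPA2 had 140.0 FPKM with shRNA63 against 132 FPKM in control, and 162 FPKM in the libraries labelled shRNA95 against 128 FPKM. RPA3 had 65.7 against 64.9 FPKM and 76.7 against 63.0 FPKM in the same comparisons. RPA1, the largest subunit, stood below control in both, at 78.0% with shRNA63 and 81.0% with the shRNA95 label. TIPIN, which protects stalled forks together with TIMELESS, stood at 93.2% and 110.0%. No member of this role had an unadjusted p under 0.05 in either table.

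The 4 nucleotide supply genes had medians of -0.34 with shRNA63 and -0.16 with the shRNA95 label. RRM1, the large subunit of ribonucleotide reductase, had 96.3 FPKM with shRNA63 against 141 FPKM in control, and 94.6 FPKM in the libraries labelled shRNA95 against 137 FPKM. Its log2 fold changes were -0.55 (error 0.27, unadjusted p = 0.0169) and -0.53 (error 0.27, unadjusted p = 0.0230) in the authors' deposited tables, and neither passed adjustment. RRM2, the small subunit that is made in S phase, had 125 against 179.7 FPKM with shRNA63 and 138 against 174 FPKM with the shRNA95 label. TK1, the thymidine kinase of the salvage route, had 128 FPKM with shRNA63 against 135 FPKM in control, but 179.6 FPKM with the shRNA95 label against 131 FPKM (unadjusted p = 0.0267, q = 0.279 in the authors' deposited table). TYMS, which makes thymidylate, stood at 89.5% and 101% of control.

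UHRF1 had the lowest log2 fold change of all members with shRNA63. The gene encodes the protein that recognises hemimethylated DNA behind the fork and recruits DNMT1. It had 23.2 FPKM with shRNA63 against 41.7 FPKM in control, or 55.7% of control. Its log2 fold change was -0.84 with an error of 0.25 in the authors' deposited table (95% interval -1.33 to -0.36, q = 0.00214). In the libraries labelled shRNA95 it had 34.4 FPKM against 40.5 FPKM in control, a log2 fold change of -0.23 in the authors' deposited table (95% interval -0.73 to 0.26), without a call. It lies at chr19:4903092-4962165 in hg19, on a locus with 2 listed genes. CHAF1A and CHAF1B, subunits of the histone chaperone that deposits histones on new DNA, stood at 72.1% and 73.6% of control with shRNA63 and at 93.0% and 95.1% with the shRNA95 label. FEN1 and LIG1, which trim and seal Okazaki fragments, stood at 64.7% and 71.3% with shRNA63, again without a call.

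The G1/S regulators were the least abundant role, with 11.5 to 28.5 FPKM in control. E2F1, an activating E2F factor, had 18.1 FPKM with shRNA63 against 24.3 FPKM in control (unadjusted p = 0.0168, q = 0.191 in the authors' deposited table), and 22.6 against 23.5 FPKM with the shRNA95 label. E2F2 stood at 81.9% of control with shRNA63 and 77.3% with the shRNA95 label. CCNE1, cyclin E1, had 24.5 against 28.5 FPKM with shRNA63 and 32.1 against 27.6 FPKM with the shRNA95 label, and CCNE2 stood at 100.4% and 80.7%. The members with E2F letters in a promoter window, shown above for MCM6 and others, had a median log2 fold change of -0.39 with shRNA63 over 21 genes, and those with a window but none of the letters had -0.41 over 20 genes. With the shRNA95 label the same sets had -0.08 and -0.07, and in the AML1-ETO table -0.47 and -0.33. At an unadjusted p under 0.05 with shRNA63 were 8 of the 21 and 4 of the 20, all lower. Of all measured genes 7.39% were lower and 6.99% higher at that p. The 8 genes without a window had a median of -0.18, and 2 of them had such a p. The sets were not tested against each other.

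**Figure D4:**
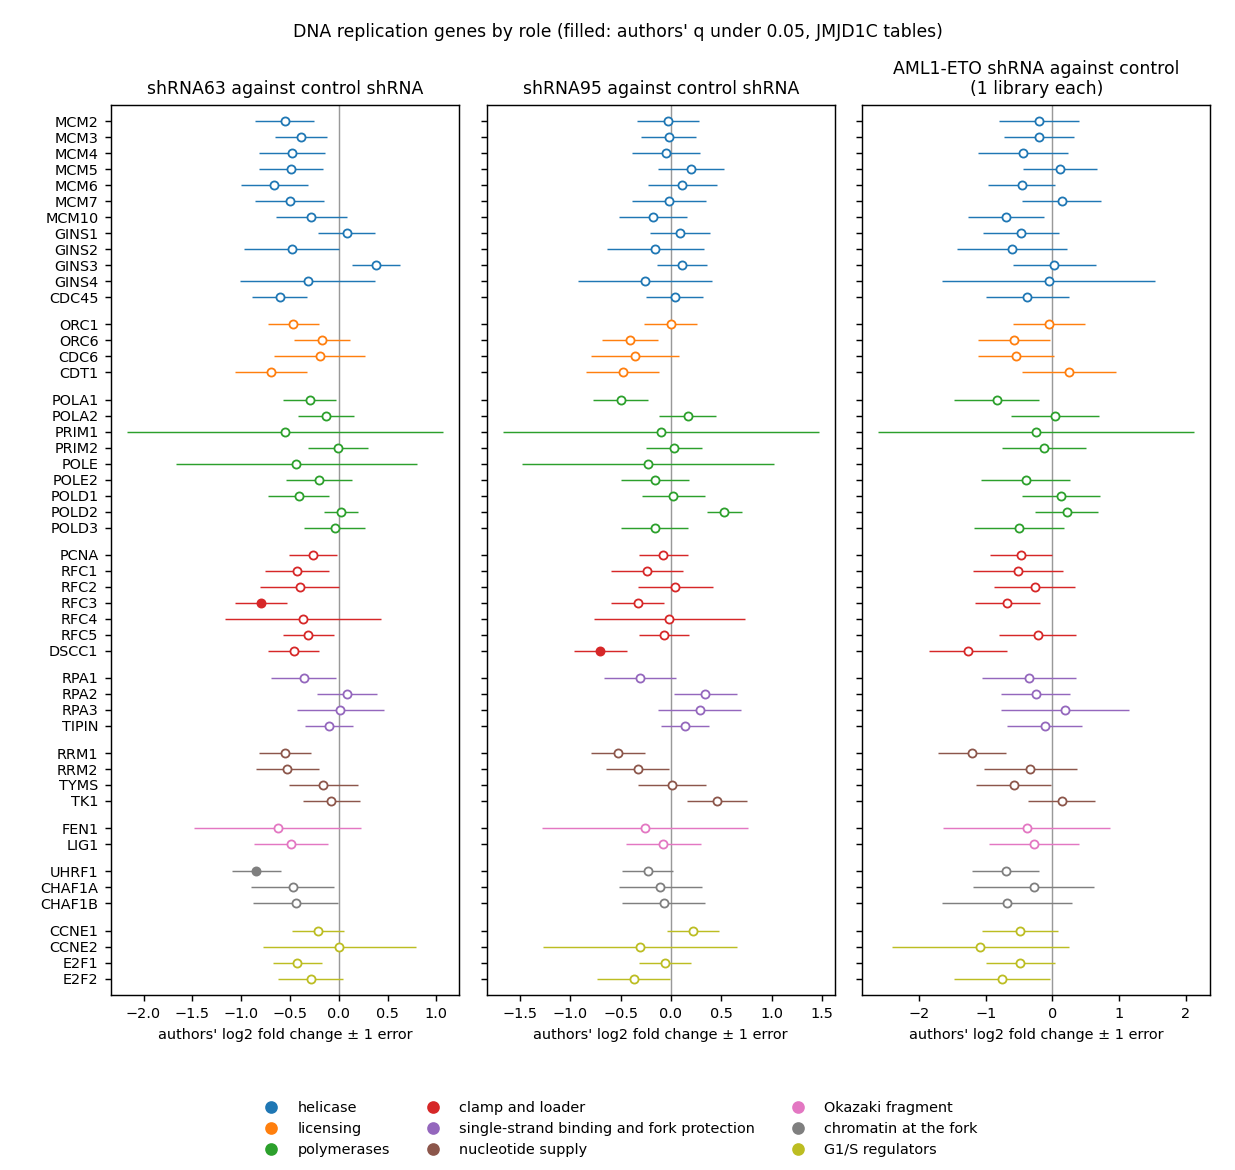
Authors' log2 fold change of each gene with shRNA63, in the libraries labelled shRNA95 and in the AML1-ETO table, grouped by role, with bars of 1 error (the fold change over the authors' test statistic). Filled circles passed the authors' test, UHRF1 and RFC3 with shRNA63 and DSCC1 with the shRNA95 label, and RFC4 and POLE have no value in the AML1-ETO table.

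The hairpins were then set against each other, gene by gene, as shRNA63 minus shRNA95 on the log2 scale. The difference was below 0 for 41 of the 49 genes, where 54.1% of 13870 genes measured in both tables were below 0, and the members' median was -0.27 against -0.04 for all. No member passed the test of the difference (two-sided, normal distribution, Benjamini-Hochberg adjusted p under 0.05), while 0.728% of all genes passed lower with shRNA63 and 0.353% higher, and no member had an unadjusted p under 0.05 in it, against 3.55% of all genes lower and 1.88% higher. That count depends on the errors used. No error is given for the control alone, so an assumed share of the squared errors was removed for it. Then 5 members had such a p, all lower with shRNA63, against 6.93% of all genes lower and 4.34% higher. With errors scaled to the deposited p there were 4, all lower, against 5.28% and 3.15%. The largest differences were -0.77 for MCM6 (95% interval -1.73 to 0.18), -0.69 for MCM5 (-1.60 to 0.22), -0.64 for CDC45 (-1.43 to 0.15) and -0.61 for UHRF1 (-1.31 to 0.09). All 6 ring subunits had negative differences, with a median of -0.50. Of the 8 genes above 0 the highest were CCNE2, GINS3, DSCC1, ORC6 and POLA1, from 0.32 down to 0.21. For RRM1 the difference was -0.02 (-0.76 to 0.72), an interval that still allows a difference of the size seen for MCM5. The test treats the errors of both comparisons as independent although the control is shared, which makes it conservative.

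**Figure D5:**
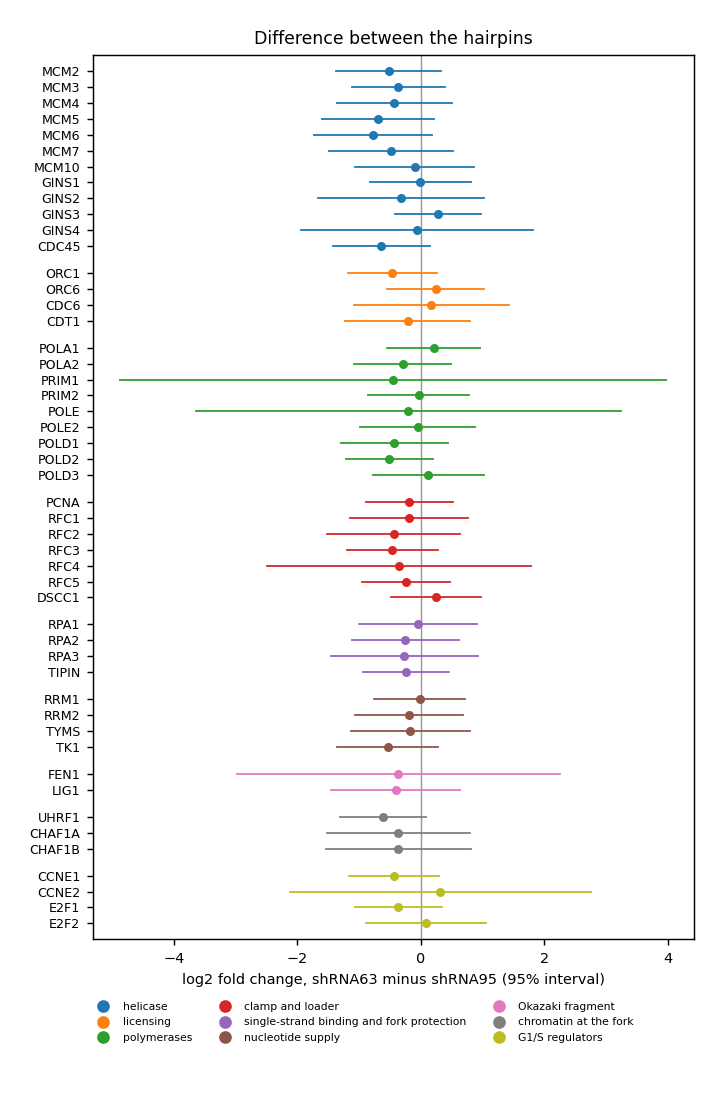
Difference of the authors' log2 fold changes, shRNA63 minus shRNA95, for each gene by role, with 95% intervals as bars. Every interval includes 0, and 41 of the 49 points lie below it, among them all 6 of MCM2 to MCM7.

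In the AML1-ETO table, where cells with an AML1-ETO shRNA were set against control cells, 38 of the 47 genes with a value were below control and 9 above, against 50.9% and 49.1% of 21727 genes. The median of the members in the authors' deposited table was -0.37 on the log2 scale, against -0.01 for all genes with a value. There was 1 library on each side, so these differences have no replicate check. DSCC1, RRM1 and CCNE2 were lower by at least 1 on the log2 scale, and no member was higher by that much, where 7.86% and 10% of all genes were. At a change of at least 0.58, 11 of the 47 were lower and none higher, against 16.2% and 19.3% of all genes. Unlike in the JMJD1C tables, these shares are over all genes tested, with no filter on level. The median error was 0.88 over all these genes against 0.60 for the members, so the sets are not alike in precision. The authors' deposited table gives log2 fold changes of -1.26 for DSCC1 (error 0.58), -1.21 for RRM1 (error 0.51) and -1.08 for CCNE2 (error 1.33). The highest were 0.25 for CDT1, 0.22 for POLD2 and 0.19 for RPA3 in the authors' deposited table, each smaller than its error. The MCM2 to MCM7 ring ranged from -0.46 for MCM6 to 0.14 for MCM7 in the authors' deposited table, and UHRF1 and RFC3 stood at -0.70 and -0.68. No member passed the authors' test there, which compares those 2 libraries and called 81 of the 21727 genes.

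Other genes of the pathway, from lists kept apart from the 49, showed smaller medians with shRNA63. Among 35 further origin and fork genes TOP2A was called lower and POLD4 and POLE4 higher, with a list median of -0.19 and 29 of 35 below control. TOP2A, the topoisomerase that untangles finished chromosomes, had 85.4 FPKM with shRNA63 against 158 FPKM in control, and its log2 fold change was -0.88 with an error of 0.28, as the authors' deposited table gives it. POLD4, the smallest subunit of polymerase delta, had 25.5 FPKM against 13.6 FPKM in control with shRNA63, and 23.5 against 13.1 FPKM with the shRNA95 label, where it was the list's only call. POLE4, a histone-fold subunit of polymerase epsilon, had 156 FPKM with shRNA63 against 98.3 FPKM in control. Of 19 further nucleotide supply genes RRM2B, a p53-induced subunit of ribonucleotide reductase, was called lower with shRNA63, its log2 fold change being -1.04 with an error of 0.34 as the authors' deposited table gives it. With the shRNA95 label RRM2B went the other way, at 0.60, the highest of that list, without a call. Its difference between the hairpins, -1.65, was the lowest of the list. In the test of that difference 1 gene of the list passed, lower with shRNA63, against 0.728% of all genes. The medians of that list were -0.15 with shRNA63 and 0.14 with the shRNA95 label. None of 24 further G1/S regulators was called with either hairpin, with medians of -0.17 and -0.13. At an unadjusted p under 0.05 in the authors' deposited tables, 2 of the 24 were lower and 3 higher with shRNA63, where 7.39% and 6.99% of all measured genes were, and 0 with the shRNA95 label, where 5.29% and 7.98% were.

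Mitosis genes, the neighbouring step of the cell cycle, were nearer to control with shRNA63 than the replication genes in median. Over 35 mitosis genes the median log2 fold change was -0.12 with shRNA63 and -0.01 with the shRNA95 label, against -0.39 and -0.07 for the 49 genes, and the difference between the lists was not tested. The spindle checkpoint gene MAD2L1 was the only mitosis gene called, with 38.7 FPKM with shRNA63 against 82.2 FPKM in control. In the AML1-ETO table the mitosis list had a median of -0.43 in the authors' deposited table, with 34 of 35 genes below control. Of 15 reference genes 14 were measured, and their medians were -0.03 with shRNA63 and 0.14 with the shRNA95 label.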

How the data were processed

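RNA was measured by sequencing in 6 libraries of Kasumi-1 cells, 2 for each of 3 groups, assigned by their titles. The submitters' processing notes name TopHat2 2.0.8b, Cuffdiff 2.1.1 and hg19, with no role or order. The authors' deposited tables hold 1 FPKM value per group, a log2 fold change, a test statistic (a score), a p-value and a q-value, per the file headers. The p-values have a floor of 5e-05. The 2 FPKM columns of the AML1-ETO table come from 2 libraries outside the series and were left unused, so a finite log2 fold change from a completed test stood in for the level there.

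Called means a q-value under 0.05 as deposited. The error of a log2 fold change is its size over the test statistic, and a 95% interval is 1.96 errors on each side. The deposited p-values are smaller than that statistic gives (1.41 times its normal deviate at the median in both JMJD1C tables), so these errors are mostly the wider reading. Among the members POLD2 and GINS4 are exceptions in both tables, with a deposited p larger than the statistic gives. In the test between hairpins, errors under the 10th percentile were raised to it. For the processing comparison a log2 ratio with a pseudocount of 1 FPKM was also computed. Python 3.11.15, pandas 2.3.3 and scipy 1.17.1 were used. Locus starts were converted to count from 1.

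The members and lists were chosen with earlier results of these data known. Members given with values were those called, with an unadjusted p under 0.05 in a JMJD1C table, among the 3 highest or lowest of a table, or highest or lowest in control FPKM within a role. MCM10, GINS2, GINS4, CDC6, POLE, POLD1, PRIM1, RFC2, RFC4 and RPA1 fall outside that rule and were added after their values were seen. Of the other lists, genes called were named. An erythroid marker is not reported here. The stretches printed were picked after values were known. Files per library were not analysed here, so depth is unknown and no test across libraries was made.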

Additional observations from a re-analysis of the deposited data

How the results depend on the processing

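The count of members called with shRNA63 was 2 at a q under 0.05 or 0.01, with adjustment over measured genes only, without a filter on level and with at least 5 FPKM. At a q under 0.1 it was 6, all lower, the added genes being MCM2, MCM6, CDC45 and CDT1, where 4.15% of all measured genes were lower. With the shRNA95 label the count stayed at 1 under those settings. The median log2 ratio with a pseudocount was -0.39 with shRNA63 and ranged from -0.39 to -0.36 over 6 alternatives. With the shRNA95 label it was -0.07, and -0.21 when centred on the reference genes, whose own median was 0.14. Centred on all measured genes it was -0.10. No member differed between the hairpins under the 3 alternatives. Of all genes 587 passed with an assumed share of the errors removed for the shared control. With errors scaled to the deposited p 208 passed, against 150 as reported. For AML1-ETO, 3 members were past a log2 change of 1, 11 past 0.58, all lower, and 0 passed by the authors' q-value. Of all genes, with no filter on level, 16.2% were lower by at least 0.58. The log2 fold changes of the 33 named members moved by less than their error in all 132 alternatives, with no called value changing sign. These were only a pseudocount of 1 FPKM and centring on all measured genes. Both shifts are small beside the errors at these levels, so a larger move could not have been seen. No paired analysis was possible because the tables hold 1 value per group, and leaving out a replicate was not run for the same reason. The median error of the members was 0.32 with shRNA63 and 0.33 with the shRNA95 label, so with shRNA63 a log2 change under 0.64 was less than 2 errors for a typical member.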
